A study of Homo sapiens with 4 samples.

Results

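Histone messages were examined in HEK293 cells, a human embryonic kidney line transformed with adenovirus DNA that is widely used to express cloned receptors. Members were chosen by gene symbol. Symbols beginning with H1-, H2AC, H2BC, H3C or H4C gave 71 measured genes, the canonical histone genes together with the whole H1 family. They were set against 6 histone variant genes that are known to give polyadenylated messages, H2AZ1, H2AZ2, H2AX, H3-3A, H3-3B and MACROH2A1. Together these are 77 of the 17217 named genes on the array, carried by 249 probes in 83 targets. Of 74 protein-coding genes that the symbols cover in the RefSeq table, H2AC19, H3C13 and H4C11 had no matched probe. Cells of 1 untreated group were grown in DMEM with serum and antibiotics, and 4 separate plates were harvested at confluence and hybridised to 1 array each. The labels call the cells normal, although the line is transformed and was bought from a cell bank.

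Histones are the proteins around which DNA is wound. The core histones H2A, H2B, H3 and H4 form the particle, and H1 binds the DNA between particles. Most of their genes lie in clusters, lack introns and are transcribed while DNA is being copied. The messages of these cluster genes normally end in a short stem-loop, which is bound by SLBP, rather than in a poly(A) tail. Replacement variants are made outside of DNA synthesis as well, from single genes with ordinary polyadenylated messages. Some cluster genes, such as H2BC12 and H2BC21, are known to give a polyadenylated form too. Complementary DNA was primed here with oligo(dT), which anneals to poly(A).

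The 71 genes are not uniform in this respect. Some linker histone genes, such as H1-7, H1-8 and H1-10, share the H1- symbol but lie outside the clusters. The 67 genes without these are called cluster genes below. Of these, 54 lie on chromosome 6 and 11 on chromosome 1. The remaining pair, H4C16 and H2BC12L, lie on other chromosomes.

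The promoters of 4 members are shown because they carry the upstream features by which the families differ. They are RefSeq windows on GRCh38.p14 that run from 250 bases before to 50 bases after the start of the gene. Capitals mark, on either strand, the octamer ATTTGCAT, the TATA box TATAAA and the CCAAT box CCAAT. H2BC12 and H2BC14 are H2B genes that hold all of these motifs, H3C3 is a cluster H3 gene without the octamer, and H2AZ1 is a replacement variant.
H2BC12, chr6:27146809-27147108, minus strand: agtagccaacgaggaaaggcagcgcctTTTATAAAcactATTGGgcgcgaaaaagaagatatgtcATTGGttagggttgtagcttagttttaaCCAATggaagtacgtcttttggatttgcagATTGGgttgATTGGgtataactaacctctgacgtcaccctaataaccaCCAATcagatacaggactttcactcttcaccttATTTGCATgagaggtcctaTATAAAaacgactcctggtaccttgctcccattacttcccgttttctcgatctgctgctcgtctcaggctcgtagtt
H2BC14, chr6:27814772-27815071, plus strand: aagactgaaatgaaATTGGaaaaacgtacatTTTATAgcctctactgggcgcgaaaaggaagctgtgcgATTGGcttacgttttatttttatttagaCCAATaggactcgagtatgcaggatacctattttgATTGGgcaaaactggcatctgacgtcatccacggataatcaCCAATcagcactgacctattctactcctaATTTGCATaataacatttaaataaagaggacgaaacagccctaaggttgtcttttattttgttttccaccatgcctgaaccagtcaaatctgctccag
H3C3, chr6:26045134-26045433, plus strand: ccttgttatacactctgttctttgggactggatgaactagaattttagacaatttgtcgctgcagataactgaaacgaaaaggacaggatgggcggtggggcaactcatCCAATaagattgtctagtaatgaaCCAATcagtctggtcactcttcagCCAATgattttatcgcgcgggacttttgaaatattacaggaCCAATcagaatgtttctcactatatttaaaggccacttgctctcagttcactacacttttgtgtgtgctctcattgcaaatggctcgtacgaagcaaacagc
H2AZ1, chr4:99950226-99950525, minus strand: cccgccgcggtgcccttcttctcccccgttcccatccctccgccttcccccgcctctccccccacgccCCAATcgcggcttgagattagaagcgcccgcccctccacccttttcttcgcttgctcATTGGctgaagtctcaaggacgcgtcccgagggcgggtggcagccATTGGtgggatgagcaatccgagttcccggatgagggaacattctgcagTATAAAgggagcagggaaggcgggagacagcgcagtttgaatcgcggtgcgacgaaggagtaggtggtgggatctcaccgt

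The log2 level of a gene on an array, less the baseline of that array, is called its distance, and a gene whose distances averaged above 0 was counted as detected. The baseline is the mean plus 2 SD of seminal proteins that the study thought unlikely to be expressed in these cells. It was 10.10 ± 0.52 log2 units (SD, n = 4), lowest on replicate 1 and highest on replicate 3. Among these controls SPATA5 and SPATA13 had mean levels of 9.97 and 9.72 log2 units, and the others 6.53 to 7.25. Without SPATA5 and SPATA13 the baseline was 7.78 ± 0.28 (SD, n = 4). Probes bind with unequal strength, so distances of different genes do not compare the abundance of their messages, and in whole cultures fewer cells with a message cannot be told apart from less of it per cell. Of the markers fixed for HEK293 cells and embryonic kidney, VIM at 5.26 ± 0.64 and NEFL at 4.01 ± 0.56 (SD, n = 4 for each) exceeded the baseline on all 4 arrays, while PAX2 and LHX1 lay below it on all 4. The other markers split between arrays. WT1 stood at 0.84, 1.60, -0.64 and 1.45 on replicates 1 to 4, and NEFM at 4.10, -1.62, 2.4 and -2.24. All 6 markers of leukocytes, liver, endothelium and red cells lay below it on all 4 arrays.

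Message for every one of the 6 polyadenylated variants was detected, on all 4 arrays, while the genes chosen by symbol were detected less uniformly. Of those 71 genes, 30 were detected, or 42.3%, where 52.7% of all named genes were. On every array of the 4 the level exceeded the baseline for 24, or 33.8%, against a background of 45.0%. The limma test called 26, or 36.6%, against a background of 45.9%. Distances above 3 were found for 6 of the 71 (8.45%), against 17.6% of all genes. For the 67 cluster genes alone the count was 28, or 41.8%. Below the baseline on all 4 arrays were 29 of the 71 genes, a share near that of all genes, 6855 of 17217. Another 18 of the 71 lay above it on 1 to 3 arrays. Some cluster messages were seen in material primed with oligo(dT) and others were not.

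The side on which the cluster genes lay of the background depended on the height of the baseline. With 3 SD in place of 2 the 71 genes stood at 32.4% and all genes at 39.1%. With 1 SD they stood at 66.2% and 64.3%, and without SPATA5 and SPATA13 among the controls at 84.5% and 74.0%. The plot of cumulative distances shows where the curves cross.

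**Figure D1:**
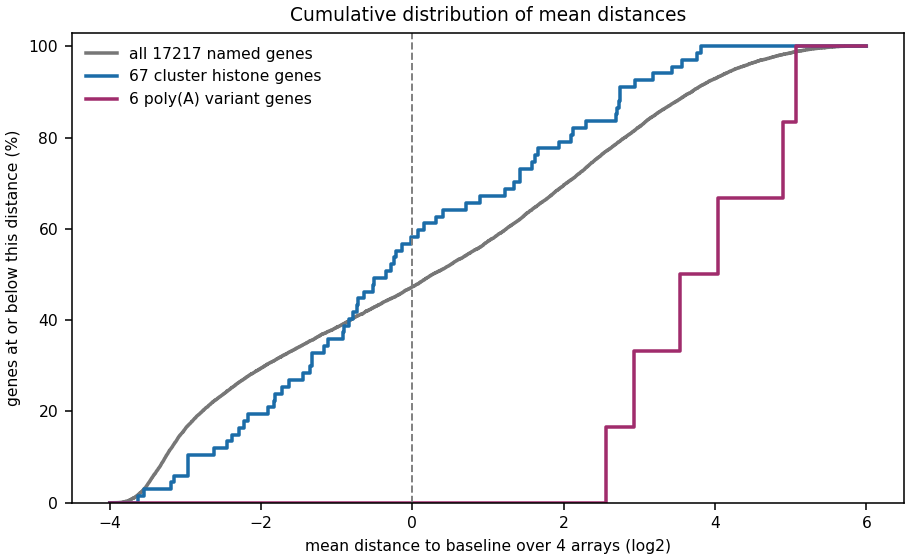
Percent of genes (vertical axis) whose mean distance to the baseline over 4 arrays (horizontal axis, log2 units) is at or below a given value, for all 17217 named genes, the 67 cluster genes and the 6 polyadenylated variants. The curve of the cluster genes crosses that of all genes left of the dashed baseline and ends at 3.81, while the variants run from 2.56 to 5.07.

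The median distance of the 71 genes was -0.35 log2 units, against 3.79 for the 6 variants and 0.26 for all named genes. On replicates 1 to 4 the median of the 71 was 0.39, -0.23, -0.97 and -0.68. That of the variants was 4.72, 3.86, 3.11 and 3.34. The variants stood above the 71 genes by 4.32, 4.09, 4.08 and 4.02 log2 units on the 4 arrays, a gap of 4.13 ± 0.13 (SD, n = 4). The groups were chosen by name and their probes differ, so the gap has no test here. The baseline of an array cancels in this gap by construction. Before subtraction the median level of the 71 genes was 9.86, 9.70, 9.72 and 9.64 on the 4 arrays.

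**Figure D2:**
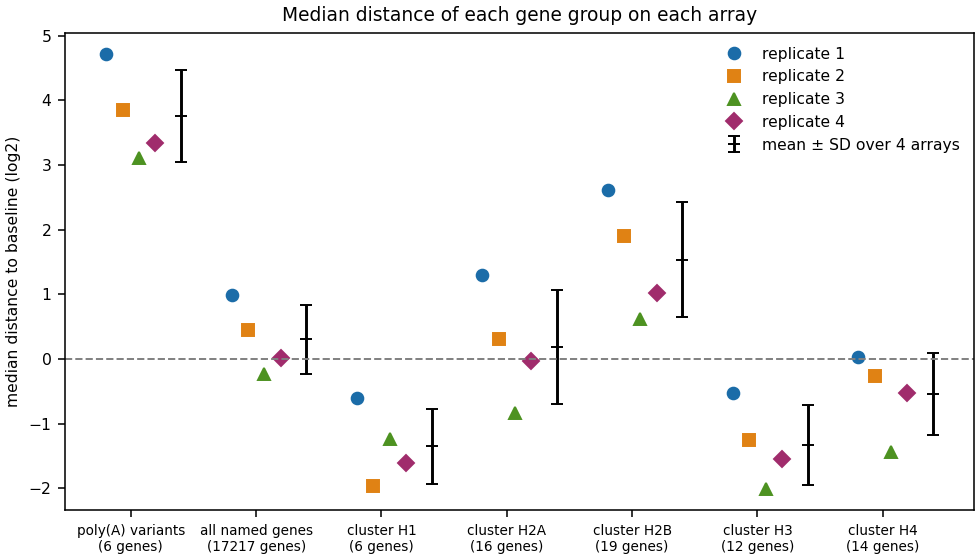
Median distance to the baseline (log2 units) of each gene group on each of 4 arrays, with the mean and SD of the 4 medians beside it. The median of cluster H2B genes lies above that of all named genes on each array, at 0.61 to 2.62. The medians of cluster H1 and of cluster H3 genes lie below 0 on each array.

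Among the replacement variants, H2AZ1 encodes H2A.Z, found around transcription start sites. Its distance was 5.89, 5.31, 4.52 and 4.55 on replicates 1 to 4, a mean of 5.07 ± 0.66 (SD, n = 4). It was the highest of the members and lay at percentile 98.8 of all named genes. The second H2A.Z gene, H2AZ2, stood at 3.21, 2.81, 1.99 and 2.22, a mean of 2.56 ± 0.56 (SD, n = 4), the lowest of the 6. H2AZ2 is the mean of 5 targets for different transcripts, and their probes disagreed. In 4 of the targets the probe with the lowest number read 13.83 to 14.16 log2 units and the next 9.29 to 9.52.

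H3-3A and H3-3B both encode the replacement histone H3.3, which is placed into chromatin at transcribed genes and telomeres. H3-3A stood at 6.0, 5.45, 3.48 and 4.68, a mean of 4.90 ± 1.09 (SD, n = 4). H3-3B stood at 3.86, 3.49, 1.48 and 2.88, a mean of 2.93 ± 1.05 (SD, n = 4). Replicate 3 was the lowest array for both, and it was also the lowest in the levels before subtraction, at 14.17 for H3-3A and 12.17 for H3-3B.

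H2AX, the variant that is phosphorylated at DNA breaks, is known to give both a stem-loop and a polyadenylated message. Its distance was 5.01, 3.91, 3.74 and 3.51, a mean of 4.04 ± 0.66 (SD, n = 4). MACROH2A1 encodes a large H2A variant associated with silent chromatin. It stood at 4.42, 3.80, 2.75 and 3.17, a mean of 3.54 ± 0.73 (SD, n = 4), over 2 targets. All 6 variants stood above the baseline by more than the spread between arrays.

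Among linker histones outside the clusters, H1-10 stood at 2.47, 1.55, 1.15 and 1.91, a mean of 1.77 ± 0.56 (SD, n = 4). It was above the baseline on all 4 arrays. The germ-line linker histones H1-7 and H1-8 lay below it on all 4, at -2.46 ± 0.20 and -2.29 ± 0.50 (SD, n = 4 for each).

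Of the 6 cluster H1 genes, H1-2 alone was detected at this baseline. With 1 SD there were 3, beside 64.3% of all genes. Olfactory receptor controls gave 4, beside 71.4%, and the median and MAD also 4, beside 67.7%. Without SPATA5 and SPATA13 among the controls there were 5, beside 74.0%. H1-2 stood at 4.20, 2.44, 2.37 and 1.73, a mean of 2.69 ± 1.06 (SD, n = 4), and is among the cluster genes known to give polyadenylated messages. The others, H1-1, H1-3, H1-4, H1-5 and the testis form H1-6, lay below the baseline on all 4 arrays, with means from -2.97 to -0.84.

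**Figure D3:**
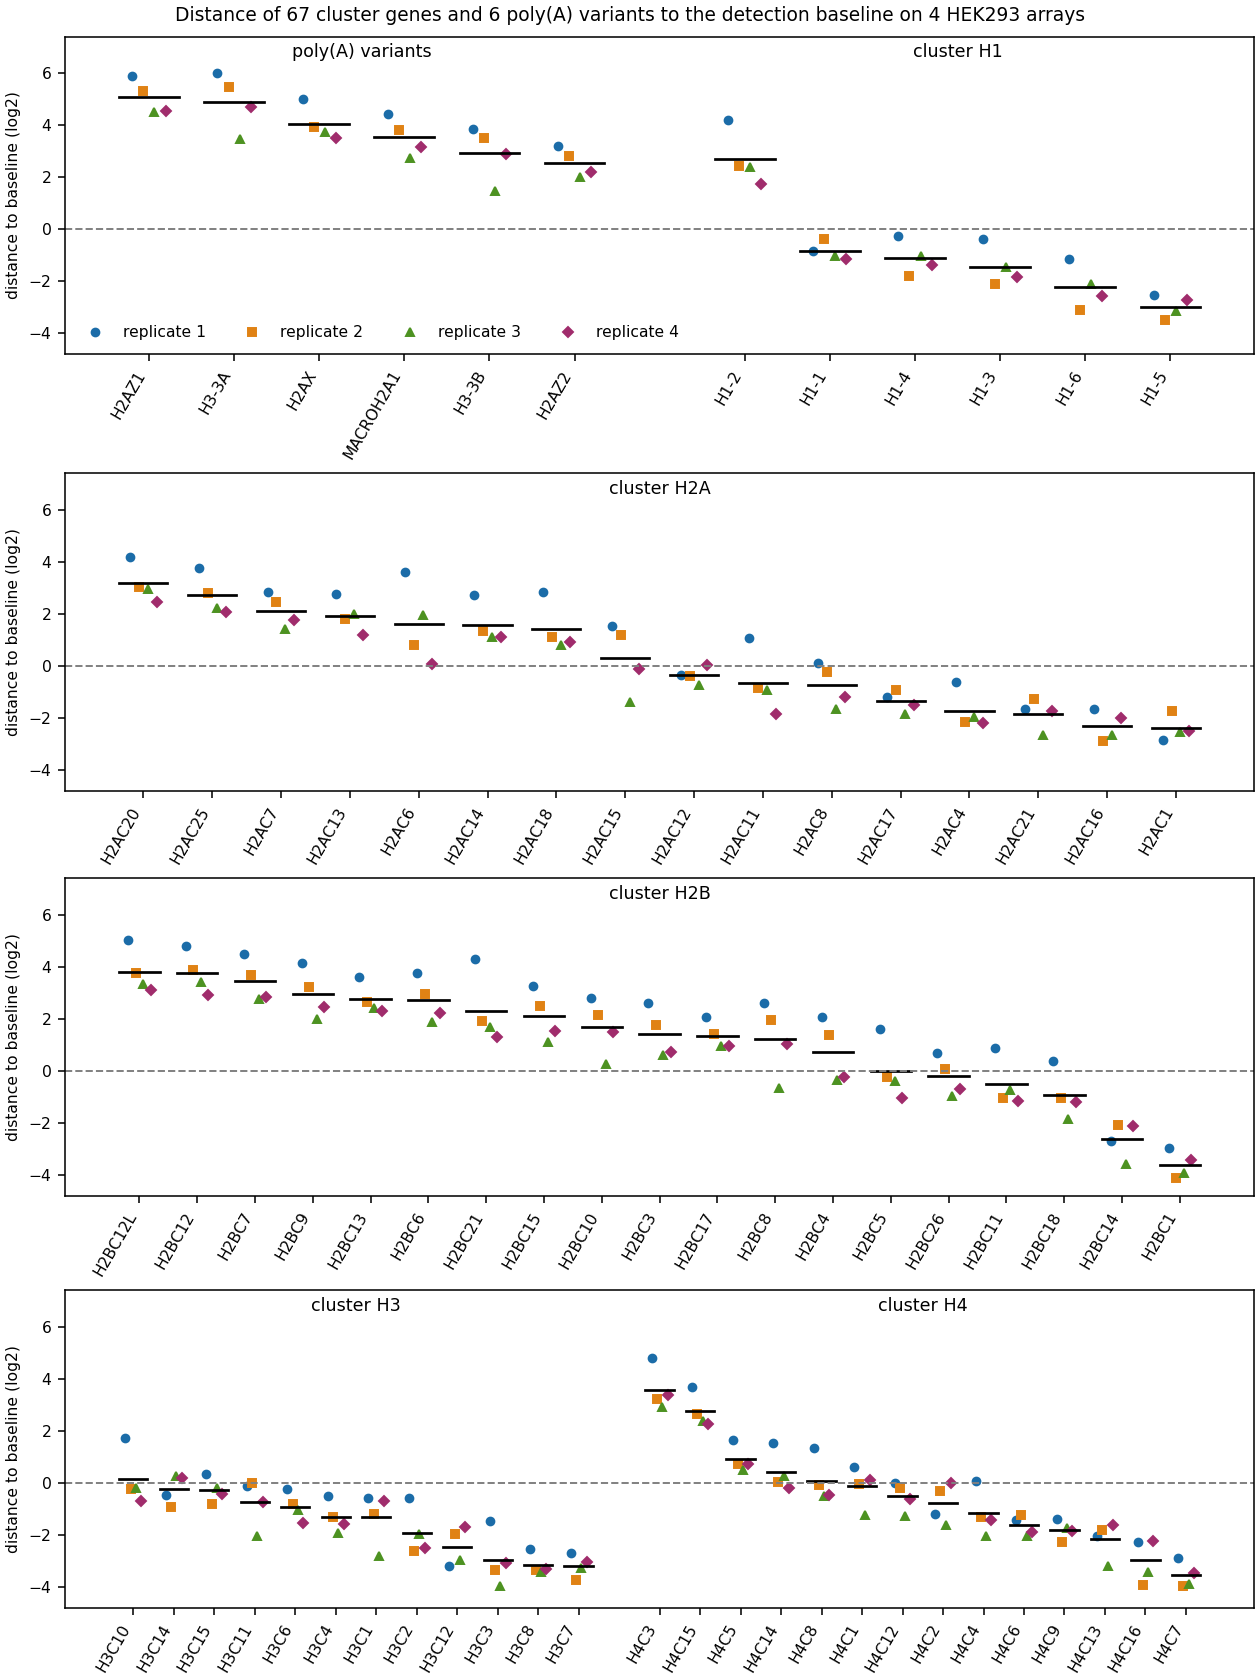
Distance to the baseline (vertical axis, log2 units) of the 67 cluster genes and 6 polyadenylated variants on each of 4 arrays, with points for arrays and a bar for their mean, ordered by mean within each group. All points of the 6 polyadenylated variants lie above the dashed baseline, H1-2 stands apart from the other cluster H1 genes, and 1 of the 12 cluster H3 genes, H3C10, has its mean above the baseline.

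The core families differed in how many genes were detected. Cluster H2B had 13 of 19 detected, cluster H2A 8 of 16, cluster H4 5 of 14 and cluster H3 1 of 12, beside the background of 52.7%. The median distances were 1.42 for H2B, -0.02 for H2A, -0.65 for H4 and -1.32 for H3. On each of the 4 arrays H2B had the highest median of these families and H3 the lowest. These counts moved with the baseline. With 3 SD they were 11 for H2B, 7 for H2A, 2 for H4 and 0 for H3, beside 39.1% of all genes. Without SPATA5 and SPATA13 among the controls they were 17, 15, 12 and 8, beside 74.0% of all genes. The share of H2A, 15 of 16, then exceeded that of H2B, 17 of 19.

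H2B dimerises with H2A in the particle. The highest cluster gene was H2BC12L on chromosome 21, at 5.04, 3.74, 3.34 and 3.11, a mean of 3.81 ± 0.86 (SD, n = 4). H2BC12, its close relative on chromosome 6, stood at 4.80, 3.88, 3.42 and 2.92, a mean of 3.76 ± 0.80 (SD, n = 4). The difference of these 2 is well within the spread between arrays, and their probes may share messages, which was not tested. H2BC7 followed at 3.43 ± 0.81, H2BC9 at 2.95 ± 0.94 and H2BC6 at 2.71 ± 0.84 (SD, n = 4 for each), and none of these fell below the baseline on any array.

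H2BC21 has a long annotated message of 2224 bases, and its 3 probes carry the numbers 846, 1218 and 1991. It stood at 4.30, 1.90, 1.69 and 1.30, a mean of 2.30 ± 1.36 (SD, n = 4). H2BC4 stood at 2.07, 1.36, -0.35 and -0.24, a mean of 0.71 ± 1.20 (SD, n = 4, limma adjusted p = 0.047), within the spread between arrays. Without replicate 1 its mean was 0.26 (limma adjusted p = 0.484), and without replicate 2 it was 0.49 (limma adjusted p = 0.273). H2BC8 was called at 1.23 ± 1.42 (SD, n = 4, limma adjusted p = 0.00059), also within that spread, with replicate 3 below the baseline at -0.67. The testis form H2BC1 was the lowest member, at -3.62 ± 0.51 (SD, n = 4), below the baseline on all 4 arrays.

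Among cluster H2A genes, H2AC20 stood at 4.21, 3.04, 2.98 and 2.48, a mean of 3.18 ± 0.73 (SD, n = 4). H2AC25 stood at 2.73 ± 0.76, H2AC7 at 2.13 ± 0.65 and H2AC13 at 1.94 ± 0.64 (SD, n = 4 for each), and none of these fell below the baseline on any array. H2AC15 was detected at 0.31 ± 1.32 (SD, n = 4) but not called (limma adjusted p = 0.377). It stood at 1.54 and 1.19 on replicates 1 and 2 and at -1.36 and -0.11 on replicates 3 and 4. The testis form H2AC1 lay below the baseline on all 4 arrays, at -2.39 ± 0.47 (SD, n = 4).

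Nearly all cluster H4 genes encode the same protein, so their messages are told apart mainly outside of the protein sequence. H4C3 stood at 4.78, 3.21, 2.90 and 3.38, a mean of 3.57 ± 0.83 (SD, n = 4). H4C15, whose probes carry numbers from 457 to 1143, stood at 2.74 ± 0.65 (SD, n = 4). H4C5 was called at 0.90 ± 0.52 (SD, n = 4, limma adjusted p = 0.012), but its mean was 0.65 without replicate 1 (limma adjusted p = 0.064). H4C14 at 0.41 ± 0.76 and H4C8 at 0.08 ± 0.85 (SD, n = 4 for each) were detected but not called, with limma adjusted p of 0.251 and 0.79. H4C7 was the lowest of the family, at -3.54 ± 0.49 (SD, n = 4).

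In the cluster H3 family H3C10 was the gene detected, at 1.72, -0.23, -0.18 and -0.68, a mean of 0.16 ± 1.07 (SD, n = 4). It rested on replicate 1, without which the mean was -0.36, and it was not called (limma adjusted p = 0.639). No gene of the family lay above the baseline on all 4 arrays, beside 45.0% of all genes. Below it on all 4 were 9 of the 12, beside 6855 of the 17217 named genes. H3C3, H3C7 and H3C8 stood at -2.97, -3.19 and -3.15. The replacement genes H3-3A and H3-3B stood above them on each array, where the median of cluster H3 was between -2.01 and -0.53 and the lower of the H3.3 genes between 1.48 and 3.86.

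Cluster genes known also to give polyadenylated messages were listed from general knowledge as H1-2, H2AC6, H2BC4, H2BC5, H2BC12 and H2BC21. Earlier results of these data were known when the list was made, so the counts are a description. Of these 6, 5 were detected, beside the background of 52.7%, and 23 of the other 61 were (37.7%). Their median distance was 1.96 against -0.64. H2BC5 was the exception at -0.01 ± 1.14 (SD, n = 4, limma adjusted p = 0.975), above the baseline on replicate 1 alone. H2BC4, counted as detected, lay above it on replicates 1 and 2 alone. Grouped by annotated length, 4 of 8 cluster genes that span 1000 bases or more were detected, and 24 of 59 shorter ones (40.7%).

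The levels of several of these genes differed between arrays by more than those of most genes. H2AC6 read 13.09 and 12.66 log2 units on replicates 1 and 3, and 10.76 and 10.40 on replicates 2 and 4. H1-2 read 13.67 and 13.06 on the former arrays and 12.38 and 12.06 on the latter. H2BC21 read 13.77 and 12.38, and then 11.83 and 11.62. In each case both of replicates 1 and 3 lay above both of replicates 2 and 4, and so they did for H2BC12 and H2BC5 but not for H2BC4. The same order was found outside these 6 genes, in members of each cluster family such as H2AC20, H2BC12L, H3C10 and H4C15, and in H2AX. Other cluster genes had the reverse order, with both of replicates 2 and 4 above both of replicates 1 and 3. Among these were H2AC21, H2BC14, H3C11, H3C12, H4C2 and H4C13. The markers of HEK293 cells and embryonic kidney were mixed. NEFM read 13.57 and 13.09 on replicates 1 and 3 against 8.32 and 8.08 on replicates 2 and 4. NEFL, LHX1 and VIM had this order too, VIM narrowly, with 15.43 on replicate 3 and 15.41 on replicate 2. WT1 had the reverse order, with 10.31 and 10.05 on replicates 1 and 3 against 11.54 and 11.77, and PAX2 had neither. The median SD of the level over the 4 arrays was 0.75 for these 6 genes, 0.52 for all 67 cluster genes, 0.28 for the polyadenylated variants and 0.42 for all named genes. How many members or named genes had either order was not counted, and what set these arrays apart was not tested.

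Detected targets of cluster genes rested on 1 probe more often than those of all genes. The median range between the probes of a target was 1.87 log2 units for cluster genes and 1.48 for all named genes. For the polyadenylated variants it was wider than both, at 2.45, but 5 of their 11 targets belong to H2AZ2, whose probes disagreed. Of 29 detected cluster targets, 7 had a single probe above the baseline (24.1%), against 9.09% of detected targets over all named genes, and none of the 11 targets of the polyadenylated variants did. The H2B gene H2BC3 read 6.99, 13.06 and 6.60 log2 units in its 3 probes, numbered 40, 153 and 344. H2BC13 read 7.82, 14.40 and 7.85 in probes 8, 178 and 394. H2BC17 read 7.53, 12.94 and 8.12 in probes 8, 120 and 394. The H2A gene H2AC14 read 7.88, 13.17 and 8.72 in probes 68, 250 and 340. In these 4 genes the middle probe alone stood high, and in each it was the highest on every array.

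With the highest probe of every target left out, 27 of the 71 genes were detected, or 38.0%, beside 50.7% of all genes. Of the 30 genes detected before, 5 dropped below the baseline, and 2 genes rose above it. H2BC3 then stood at -2.68, H2BC13 at -1.60, H2BC17 at -1.57 and H2AC14 at -1.15, and H3C10 was the fifth to drop. H2BC5 and H3C14 were those that rose. The 6 polyadenylated variants were all detected without that probe. Genes of 1 family are near copies in their coding part, and probe sequences were not used here, so these detections are uncertain as to which family member they reflect.

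**Figure D4:**
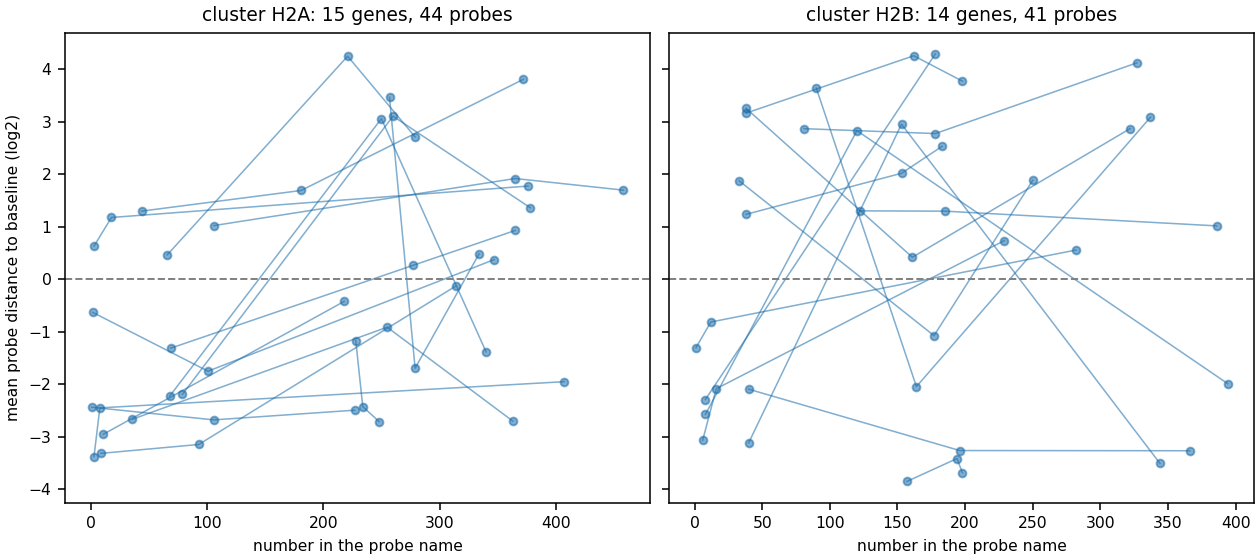
Mean distance of single probes to the baseline over 4 arrays (vertical axis, log2 units) against the number in the probe name (horizontal axis), for cluster H2A and H2B genes that span under 1000 bases. Lines join the probes of 1 gene, and several genes, H2BC3 and H2BC17 among them, have a middle probe above the dashed baseline and outer probes below it.

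The number in a probe name appears to be its position in the message. Among 177 probes of the 59 shorter cluster genes, 172 had a number that left room for a 60-base probe within the annotated gene, whose median span was 487 bases. Of those 172, probes numbered 1 to 99 lay above the baseline in 11 of 59 cases (18.6%), those from 100 to 299 in 35 of 75 (46.7%) and those from 300 in 16 of 38 (42.1%). In H2B the shares were 6 of 14, 14 of 20 and 4 of 7. In H4 they were 0 of 16 and 10 of 23, with no probe numbered 300 or over, and in H3 0 of 7, 1 of 6 and 2 of 17. Probes of 1 gene share a message, so these counts are a description.

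Promoter windows were found for 61 cluster genes and all 6 variants. The octamer ATTTGCAT stood in 14 of 18 H2B promoters (77.8%) and 11 of 15 H2A promoters (73.3%), against 1.77% of 35116 windows of the same length. H2A and H2B genes that start close together in opposite directions have overlapping windows. The same match can then count for both genes, so these shares are not independent. The octamer stood in 1 of 10 H3 windows and in none of the 6 H1 or 12 H4 windows. That H3 window, of H3C4, is the same stretch as the window of H2AC7, so its octamer is already counted under H2A. The CCAAT box, on either strand, stood in all H1, H2A, H2B and H3 windows and in 3 of 12 H4 windows, against 34.6% of all windows. The TATA box stood in 39 of the 61 (63.9%), against 11.5% of all windows. The TATA letters on 1 strand and their complement can overlap. These are letter matches and not shown to be sites.

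Of 14 H2B genes with the octamer 10 were detected, and of 4 without it 2. Of 11 H2A genes with it 4 were detected, and of 4 without it all 4. These few genes lay on both sides of the 52.7% of all genes, and nothing is read from the split. H2BC12 and H2BC14, printed above, both hold the octamer, TATA letters and CCAAT boxes, and stood at 3.76 and -2.62. Their TATA letters are placed differently. In H2BC14 they are on the opposite strand alone, at the end of the window far from the start. In H2BC12 they also stand between the octamer and the start, on the strand of the gene. H2BC14 lay below the baseline on all 4 arrays.

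H2A and H2B genes often lie head to head and share the stretch between their starts. Of 11 such pairs, with starts 192 to 246 bases apart, both genes were detected in 5, neither in 2, the H2A gene alone in 2 and the H2B gene alone in 2. Of all named genes 52.7% were detected. Whether the partners of a pair are detected together more often than unpaired genes was not tested. H2BC21 and H2AC20 stood at 2.30 and 3.18, and H2AC7 and H2BC7 at 2.13 and 3.43. H2AC14 stood at 1.58 and its partner H2BC14 at -2.62, and H2AC14 is among the genes that rest on 1 probe. So are H2BC17, detected without its partner, and H2BC13, detected with its partner, so these pair counts rest in part on single probes.

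Messages of the factors that make and handle histone mRNA were mostly present. Of 14 listed, 13 were detected, 11 on all 4 arrays, and limma called 11, beside backgrounds of 52.7%, 45.0% and 45.9%. SLBP, which binds the stem-loop, stood at 4.99, 4.53, 3.45 and 3.47, a mean of 4.11 ± 0.78 (SD, n = 4). The endonuclease CPSF3, which cuts the end of histone and other messages, stood at 4.74 ± 0.83, and CASP8AP2, part of the cutting complex, at 3.97 ± 0.71 (SD, n = 4 for each). The U7 particle proteins LSM10 and LSM11 stood at 0.93 ± 0.88 and 0.55 ± 0.26 (SD, n = 4 for each), with limma adjusted p of 0.00915 and 0.124. NPAT, the coactivator of the histone loci, lay below the baseline on all 4 arrays, at -1.92 ± 0.85 (SD, n = 4). POU2F1, which binds the octamer, stood at 3.67 ± 0.50 (SD, n = 4).

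Of 20 histone chaperones listed, 19 were measured and all 19 detected, 17 of them on all 4 arrays, with limma calling 18, where the shares of all genes were 52.7%, 45.0% and 45.9%. The FACT subunits SSRP1 and SUPT16H stood at 5.55 ± 0.61 and 4.63 ± 0.62 (SD, n = 4 for each). CHAF1B of the replication-coupled chaperone stood at 4.07 ± 0.56, HIRA of the H3.3 chaperone at 3.67 ± 0.26 and NASP at 4.09 ± 0.83 (SD, n = 4 for each). ASF1A was detected at 0.47 ± 1.03 (SD, n = 4, limma adjusted p = 0.184), while ASF1B stood at 3.82 ± 0.74 (SD, n = 4).

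All 10 genes of DNA synthesis on the list were detected on all 4 arrays, beside 45.0% of all genes, with a median distance of 3.94. TYMS, which makes thymidylate, stood at 5.10 ± 0.74, and PCNA, the sliding clamp, at 4.58 ± 0.72 (SD, n = 4 for each).

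Of 14 other histone variants listed, 8 were measured and 5 detected (62.5%), near the 52.7% of all genes. MACROH2A2 stood at 3.73 ± 0.35, the centromeric CENPA at 2.81 ± 0.74 and H2AJ at 1.26 ± 0.63 (SD, n = 4 for each), and none of these fell below the baseline on any array. H3-5, an H3.3 gene copied from H3-3B, stood at 5.45, 4.84, 1.50 and 4.34, a mean of 4.03 ± 1.75 (SD, n = 4). Because it is a near copy, its probes and those of H3-3B may read the same message. H3-4 stood at 1.83, 1.88, 0.20 and 0.06, a mean of 0.99 ± 1.00 (SD, n = 4, limma adjusted p = 0.0056), within the spread between arrays. H2BW1, H2AB1 and H2AB2 lay below the baseline on all 4 arrays.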

How the data were processed

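RNA of 4 HEK293 plates was copied from an oligo(dT) primer, labelled with Cy3 and hybridised in 1 colour to NimbleGen arrays with 60-base probes of the HG18 catalogue. The authors deposited log2 probe values extracted with NimbleScan. The submitters' processing notes name RMA without its steps. After sorting, values of equal rank differed by at most 0.01 between replicates 1 and 2 at 99.97% of ranks, between replicates 3 and 4 at 99.99% and between other pairs at 1.23% to 1.25%, the form that quantile normalization in pairs gives. Raw intensities were not used here.

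Accessions in the 71998 probe names were matched to RefSeq on GRCh38.p14, used for names, neighbours and promoters. A target was log2 of the mean linear value of its probes, and a gene the mean of its targets. The baseline came from 10 of 11 listed control genes, and PYY2 was not matched. Distances were tested one-sided against 0 with limma 3.58 in R 4.3 and Benjamini-Hochberg adjustment over 17217 genes, after a test on simulated data. The prior degrees of freedom were infinite, so all genes took a standard error of 0.351, and a shift of a baseline moves all genes of an array together. An exact one-sided test over 4 arrays cannot go below 0.0625. The number of arrays limits the precision. Named genes were the members and fixed lists of histone variants, processing factors, chaperones, DNA synthesis genes and markers. A member counted among the 71 is not reported here. Members and lists were chosen with earlier results of these data known. Alternatives changed the control genes and the height of the baseline, the way probes and targets were joined, the normalization between arrays and the arrays included.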

Additional observations from a re-analysis of the deposited data

Results flagged for a closer look

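Among the 4 arrays of a gene, 1 array stood far from the other 3 in 5 of 140 genes examined, where chance gives about 1 in 20. The gap to the nearest array, divided by the range, exceeded the critical value of Dixon's test for outliers in each. H2AC14 had a distance of 2.72 on replicate 1 and 1.13 to 1.35 on the others. H2AC18 had 2.85 on replicate 1 and 0.81 to 1.11 on the others. H2AC4 had -0.61 on replicate 1 and -2.20 to -1.95 on the others. H3C8 had -2.55 on replicate 1 and -3.42 to -3.29 on the others. H2BW1 had -3.59 on replicate 4 and -3.17 to -3.10 on the others. In the levels before the baseline was subtracted the gap was 0.30 to 0.65 of the range, and none of the 5 passed.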

How the results depend on the processing

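No paired analysis was possible because all 4 arrays belong to 1 group. The 6 polyadenylated variants were detected under every alternative. The baseline moved the other counts most. The 30 genes of the symbol set and 28 cluster genes became 47 and 45 with 1 SD, 60 and 57 without SPATA5 and SPATA13 as controls, 56 and 54 with olfactory receptor genes as controls, and 52 and 50 with the median and MAD. In the same order 66.2%, 84.5%, 78.9% and 73.2% of the symbol set were detected, beside 64.3%, 74.0%, 71.4% and 67.7% of all genes. The median of the symbol set was then 0.96, 1.97, 1.73 and 1.35 and that of the variants 5.11, 6.12, 5.87 and 5.50. With 3 SD these medians were -1.67 and 2.47, H2BC4 stood at -0.61, H2BC8 at -0.089 and H4C5 at -0.42. How probes and targets were joined moved the gap between the medians to 4.54 (mean of log2 values), 4.71 (median), 4.91 (highest probe left out, an alternative chosen after seeing the data) and 4.77 (highest target). The median of probes gave the symbol set a median of -0.98. H2AC14, H2BC13, H2BC17 and H2BC3 then stood at -1.24, -1.72, -1.61 and -2.86, and at -1.15, -1.60, -1.57 and -2.68 without the highest probe. With the mean of log2 values H2BC17 stood at -0.24 and H2BC3 at -0.88. On replicates 3 and 4 alone H2BC4 stood at -0.30. Leaving out 1 array at a time gave 27 to 33 genes of the symbol set, 25 to 31 cluster genes and a gap of 4.07 to 4.17. All genes then stood at 50.6% to 54.3%. The cause of these changes was not tested. Centring arrays on their medians leaves distances as they are by construction. Levels near the baseline limit what can be told: 8 members lay within 1 standard error of it.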
